A study of Mus musculus with 4 samples.

Results

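The interferon-stimulated genes described here were 44 genes of the interferon response, listed because the libraries labelled Prox1 KO had less Plscr1 RNA and the other members belong to the same response. A member was kept if its mean over the 4 libraries was at least 10 normalized counts, that is, read counts divided by a size factor for each library. All 44 listed members met this rule, out of 55397 genes in the table, and all are among the 15809 genes that were tested. The member with the lowest mean was Ifitm1 (400 normalized counts) and the one with the highest was B2m (144864), and no member lay outside the limit. The list was drawn up with the difference of Plscr1 between the groups known. The values of Plscr1 in that comparison are therefore a description with no test, and counts of members are over the other 43.

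The cells were primary mouse embryonic fibroblasts (MEFs) from C57BL/6J Prox1 fl/fl embryos at E13.5, made by pooling limb tissue of several embryos. Both groups carried the floxed Prox1 alleles, received the 4in1 lentivirus of liver reprogramming factors and were kept in hepatocyte culture medium until harvest at day 14. The Prox1 KO group (2 libraries) also received a lentivirus for GFP-Cre, and the control group (2 libraries) one for GFP-dCre, a recombinase without function. Both groups were thus lentivirus-transduced, and no uninfected culture is analysed here. Each library held between 42469031 and 48524008 recovered reads, which leaves little counting error for highly expressed genes. The 2 libraries with Cre are called KO-labelled below, because Prox1 itself was not lower in them: 70 and 63 of its reads were counted with Cre and 66 and 24 with dCre, and every direction rests on the labels. The count covers the whole gene, so reads from exons outside the floxed part would remain after a deletion. Hepatocyte markers, by contrast, were lower with Cre for all 9 genes. Of these, 8 passed an adjusted p under 0.05 in limma, a threshold that 6.29% of all genes tested passed as lower. All 10 fibroblast markers were tested, with summed levels of at least 1016315 normalized counts in every library. Of 13 immune cell markers, 4 (Adgre1, Tyrobp, Cd3e and Siglech) had no read in any library, the other 9 had some, and 3 of those (Cd68, Csf1r and Lyz2) passed the filter, with a summed level of the list between 294 and 366 normalized counts in every library.

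Interferons are secreted by cells that sense viral RNA or DNA. They bind receptors on the cell surface, and the receptor-bound kinases Jak1 and Tyk2 phosphorylate STAT proteins. After type I interferon, Stat2 and Irf9 take part in a complex that binds interferon-stimulated response elements (ISREs), repeats of GAAA spaced a few bases apart near the start of target genes. GAS elements serve the response to interferon gamma. The induced proteins include sensors of viral nucleic acid, effectors that block viral entry, translation or replication, the ubiquitin-like protein Isg15 and its enzymes, transcription factors that amplify the response, and proteins that load peptides onto MHC class I. Fibroblasts are a classical source and target of interferon beta, and Plscr1, a membrane protein that moves phospholipids between leaflets and restricts viral infection, is one of the induced effectors.

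RefSeq promoters (250 bases before to 50 bases after the transcription start, GRCm38.p6) were found for 36 members. An ISRE-type motif, GAAANNGAAA on either strand, was present in 17 of the 36 (47.2%), against 1079 of 27025 genes (3.99%). A GAS-type motif, TTCNNNGAA, which is its own reverse complement, was present in 10 of 36 (27.8%) against 9.55% of genes. These matches describe the letters in these windows and are not evidence of binding. Zbp1, Oas2, Mx1, Mx2, Rtp4, Usp18, Parp9 and Parp14 had no entry. The 200 bases before the start are printed for members that fell and carry the motif there, and for Isg15, which carries it and did not pass the test. Capitals mark the ISRE-type motif, and each sequence is written along the strand of its gene. The first set is the Ifit family on the plus strand, Ifit1 (chr19:34640689-34640888), Ifit3 (chr19:34583329-34583528) and Ifit3b (chr19:34607757-34607956), in each of which the motif occurred at 2 places.
Ifit1: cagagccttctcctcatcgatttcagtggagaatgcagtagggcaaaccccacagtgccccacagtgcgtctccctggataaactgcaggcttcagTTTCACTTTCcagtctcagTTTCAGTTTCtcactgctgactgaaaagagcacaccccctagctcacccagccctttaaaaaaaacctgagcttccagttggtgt
Ifit3: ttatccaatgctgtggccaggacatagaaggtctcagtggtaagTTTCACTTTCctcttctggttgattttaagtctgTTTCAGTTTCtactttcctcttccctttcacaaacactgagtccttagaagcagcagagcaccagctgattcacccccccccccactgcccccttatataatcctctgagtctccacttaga
Ifit3b: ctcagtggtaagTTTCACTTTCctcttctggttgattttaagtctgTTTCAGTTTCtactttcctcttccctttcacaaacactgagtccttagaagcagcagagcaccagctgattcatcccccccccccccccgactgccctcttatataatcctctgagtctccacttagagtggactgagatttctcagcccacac
The second set has 1 place each, Rsad2 (chr12:26456453-26456652, minus strand), Ifitm2 (chr7:140955962-140956161, minus strand) and B2m (chr2:122147487-122147686, plus strand).
Rsad2: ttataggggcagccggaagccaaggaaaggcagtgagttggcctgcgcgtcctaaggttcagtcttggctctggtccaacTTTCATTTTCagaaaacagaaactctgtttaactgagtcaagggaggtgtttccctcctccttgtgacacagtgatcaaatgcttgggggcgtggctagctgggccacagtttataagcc
Ifitm2: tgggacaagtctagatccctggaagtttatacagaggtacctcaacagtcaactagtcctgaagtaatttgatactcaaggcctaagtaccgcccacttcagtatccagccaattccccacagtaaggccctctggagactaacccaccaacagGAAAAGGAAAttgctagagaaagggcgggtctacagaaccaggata
B2m: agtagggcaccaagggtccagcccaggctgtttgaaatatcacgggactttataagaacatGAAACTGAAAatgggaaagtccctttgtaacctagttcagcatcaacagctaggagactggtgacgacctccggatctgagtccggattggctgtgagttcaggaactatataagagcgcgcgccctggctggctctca
In Isg15 (chr4:156200819-156201018, minus strand) the motif occurred 3 times in an overlapping run.
Isg15: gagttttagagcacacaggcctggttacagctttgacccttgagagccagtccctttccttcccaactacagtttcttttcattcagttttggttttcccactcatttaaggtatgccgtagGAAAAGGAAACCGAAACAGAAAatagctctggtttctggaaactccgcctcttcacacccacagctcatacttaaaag

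**Figure D1:**
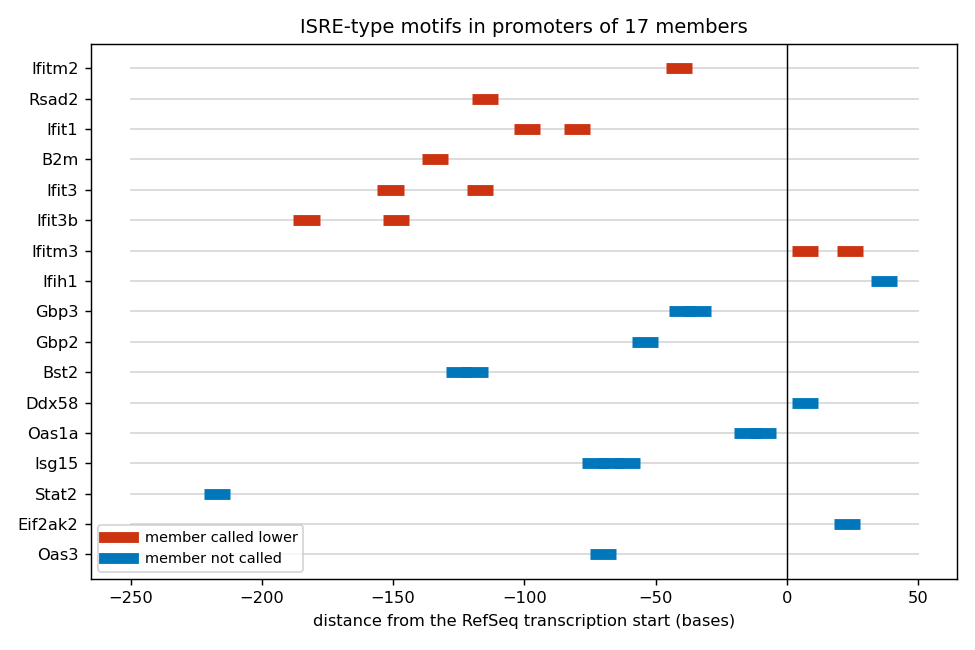
Position of ISRE-type motifs (bars) in the promoters of 17 members, in bases from the RefSeq transcription start, with genes ordered by log2 fold change from the lowest at the top. Red bars are the 7 members that fell in the KO-labelled libraries and blue bars the 10 that did not pass the test; both kinds of bar occur before the start and past it.

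Members with and without the motif were found among those that fell and among those that did not pass: it was present in 7 of the 13 fallen members with a promoter entry (53.8%) and in 10 of the 22 others (45.5%), excluding Plscr1. In the Plscr1 window there was a GAS-type motif at positions -90 to -82 from the start and no exact ISRE-type match. That window lies wholly past the GENCODE start of Plscr1, and its 200 bases before the RefSeq start are GENCODE exon, so the bases before the GENCODE start were not searched.

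Plscr1 (ENSMUSG00000032369; chromosome 9, 92249750 to 92272278, plus strand, GRCm38) had 1853 and 1867 normalized counts in the KO-labelled libraries and 2877 and 3041 in the controls. The groups did not overlap, and each group's pair of libraries lay close together. Its log2 fold change was -0.67, with -0.63 in the replicate 1 pair and -0.70 in the replicate 2 pair, a change of -37.1%. This was the largest mean difference of the 44 members. In the replicate 1 pair Ifitm2 was lower still, at -0.68. Among all genes tested, 499 (3.16%) had a lower log2 fold change than Plscr1. In bulk samples, fewer cells that express a gene and less RNA per cell cannot be told apart.

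Of the other 43 members, 14 fell and 0 rose in the KO-labelled libraries (adjusted p under 0.05, limma with replicate numbers blocked, Benjamini-Hochberg over all 15809 genes). Over all genes tested, 6.29% fell and 5.09% rose. At an unadjusted p under 0.05, 19 members were lower and 4 higher, against 3751 of the 15809 genes tested in either direction. On the recovered reads, edgeR called the same 14 and no rise, against 1025 genes lower and 775 higher. The 14 were Ifitm2, Ifitm1, Mx1, Oasl1, Rsad2, Ifit1, Irf1, B2m, Ifit3, Ifit3b, Cmpk2, Ifitm3, Irf7 and Ifit2. None of them differed by as much as Plscr1. The median log2 fold change of the 43 was -0.06, from -0.54 to 0.13, against -0.0022 over all genes tested. Of the 43, 35 were below 0. The number was 27 with a correction for GC content and the length of the longest transcript, and 25 in the replicate 2 pair alone. Both KO-labelled libraries were below both controls for 15 members (22.6% of all genes tested) and above both for 1, Ifi35 (21.8%). Within replicate numbers, 24 members were lower in both pairs (33.3% of all genes tested) and 6 were higher in both (32.5%). The median was -0.11 in the replicate 1 pair and -0.03 in the replicate 2 pair.

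**Figure D2:**
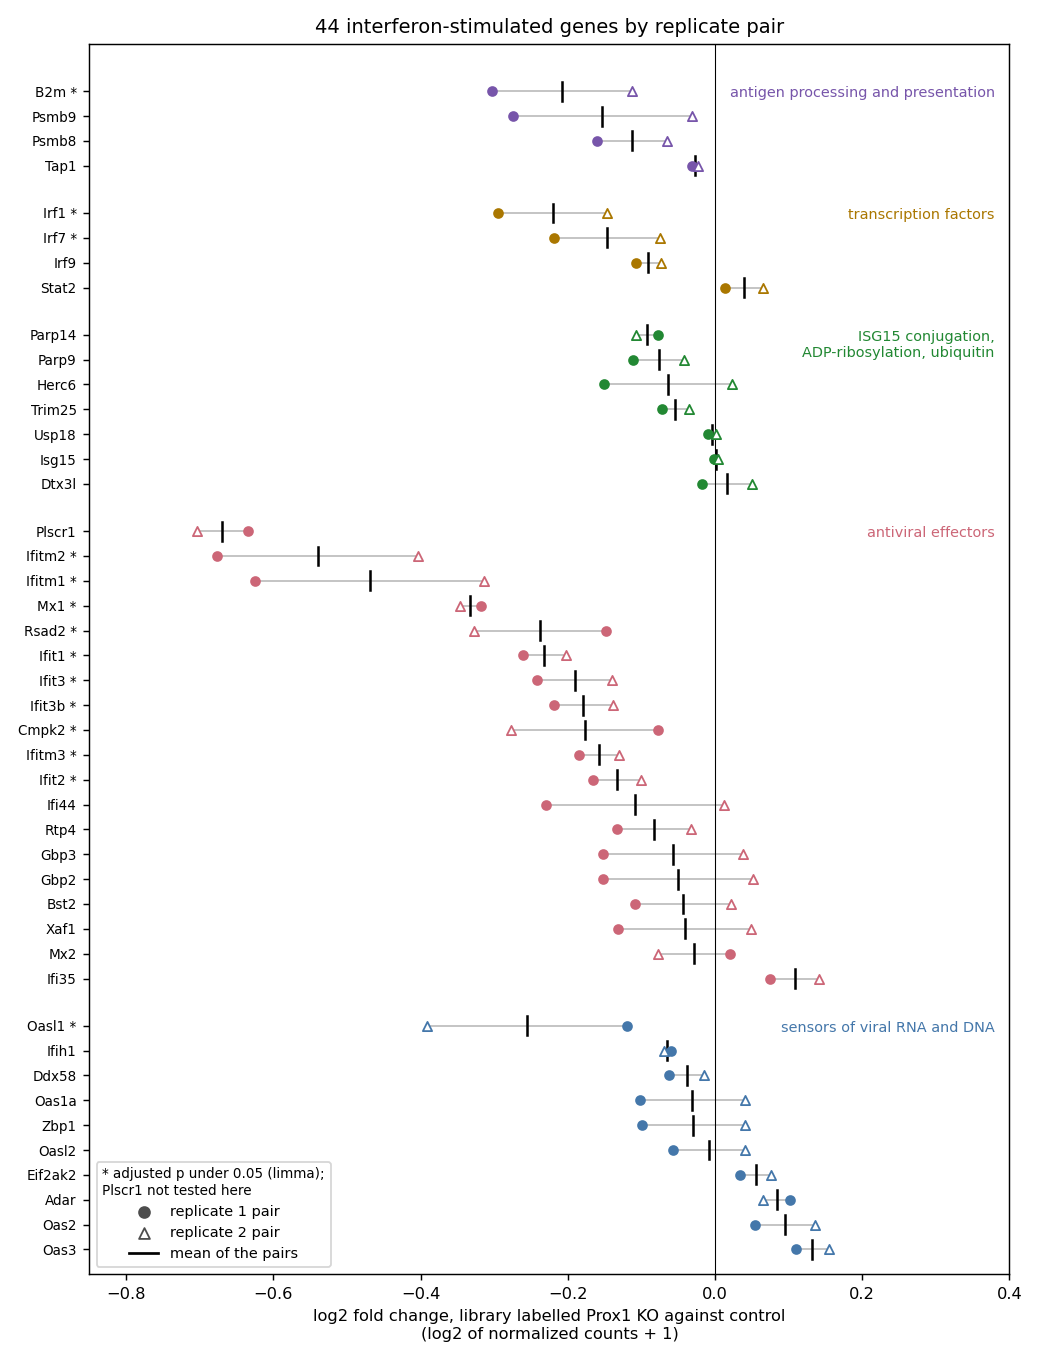
Log2 fold change of each of the 44 members (x axis, log2 of normalized counts + 1, KO-labelled library against control of the same replicate number), grouped by role. Circles are the replicate 1 pair, triangles the replicate 2 pair, bars their mean and stars the 14 members with an adjusted p under 0.05. Plscr1 lies at the far left at -0.67, most antiviral effectors lie below 0, and most sensors lie close to 0.

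Members were highly expressed. Per kilobase of exon, the median member had 1720 normalized counts, against 168 for all genes tested, and smaller fold changes can be called at higher counts; how far this sets the share of members called was not tested. DESeq2 on the recovered reads with the same block called 7 members, B2m, Ifitm2, Ifitm3, Mx1, Ifit3, Ifit3b and Ifit1, all lower, against 1.97% of the genes it tested. Without the block limma called 0 genes and 0 members, with 1783 genes and 7 members at an unadjusted p under 0.05. With a correction for GC content and the length of the longest transcript, chosen after seeing the data, 11 members fell and 2, Oas3 and Ifi35, rose. Over all genes, 834 fell and 1142 rose. Cmpk2, Ifit2, Ifitm3 and Irf7 no longer passed and Parp14 did. The share of called genes that rose went from 44.7% to 57.8% over all genes.

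The antiviral effectors held most of the falls: 10 of the 18 besides Plscr1 fell, with a median of -0.15. The Ifitm proteins, small membrane proteins that hinder the fusion of viruses with the cell, all fell. Ifitm2 (ENSMUSG00000060591) had 3756 and 4379 normalized counts in the KO-labelled libraries and 6001 and 5794 in the controls. The groups were well apart, with a log2 fold change of -0.54 (standard error 0.05; limma, adjusted p = 1.2e-05). Of its 100-base windows, 34.9% also occur in other annotated genes, the overlapping Gm45717 sharing the most. Ifitm1, the member with the lowest level, had 313 and 358 against 483 and 445, a log2 fold change of -0.47 ± 0.10 (limma's standard error, adjusted p = 0.0079). Ifitm3 had 51448 and 53948 against 58478 and 59027, a smaller difference of -0.16 (adjusted p = 0.024). These 3 genes lie together on chromosome 7, between 140954837 and 141010770.

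The 4 Ifit genes of the list, whose products bind foreign RNA ends, also lie together, on chromosome 19 between 34550694 and 34650009, and all fell. Ifit1 had 26577 and 27096 normalized counts in the KO-labelled libraries against 31846 and 31188 in the controls, a log2 fold change of -0.23 ± 0.04 (limma's standard error, adjusted p = 0.0013). Ifit3 had 34048 and 38149 against 40260 and 42017, or -0.19 (adjusted p = 0.0079). For all 4 Ifit genes both controls exceeded both other libraries. Ifit3b had 12096 and 13173 against 14079 and 14502, or -0.18 (adjusted p = 0.0085). It shares 27.4% of its windows with other genes, Ifit3 sharing the most, so reads of these paralogs may have been split between them. Ifit2 had 6407 and 6957 against 7185 and 7460, or -0.13 (adjusted p = 0.048), and was the member closest to the threshold among those that passed. All 4 were lower in both pairs, by 0.10 to 0.26 on the log2 scale.

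Mx1, Rsad2 and Cmpk2 fell within each replicate number while the groups overlapped. Mx1, a GTPase that traps viral ribonucleoproteins and is truncated by a deletion in C57BL/6 mice, had 1402 and 1993 normalized counts in the KO-labelled libraries and 1748 and 2535 in the controls. The replicate 2 libraries were the higher ones in both groups, and the log2 fold change was -0.32 in pair 1 and -0.35 in pair 2 (mean -0.33, standard error 0.05, adjusted p = 0.00063). Rsad2, which makes a nucleotide that stops viral RNA synthesis, had 3574 and 4434 against 3960 and 5563, or -0.24 (adjusted p = 0.0046). Cmpk2, the neighbour of Rsad2 on chromosome 12 and a nucleotide kinase, had 4480 and 4851 against 4725 and 5881, or -0.18 (adjusted p = 0.030). Mx1, Rsad2, Cmpk2 and the sensor Oasl1 shared an order of libraries. From the lowest it was replicate 1 KO-labelled, replicate 1 control, replicate 2 KO-labelled and replicate 2 control. The 8 effectors that did not pass were Ifi44, Rtp4, Gbp3, Gbp2, Bst2, Xaf1, Mx2 and Ifi35, with log2 fold changes from -0.11 to 0.11.

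**Figure D3:**
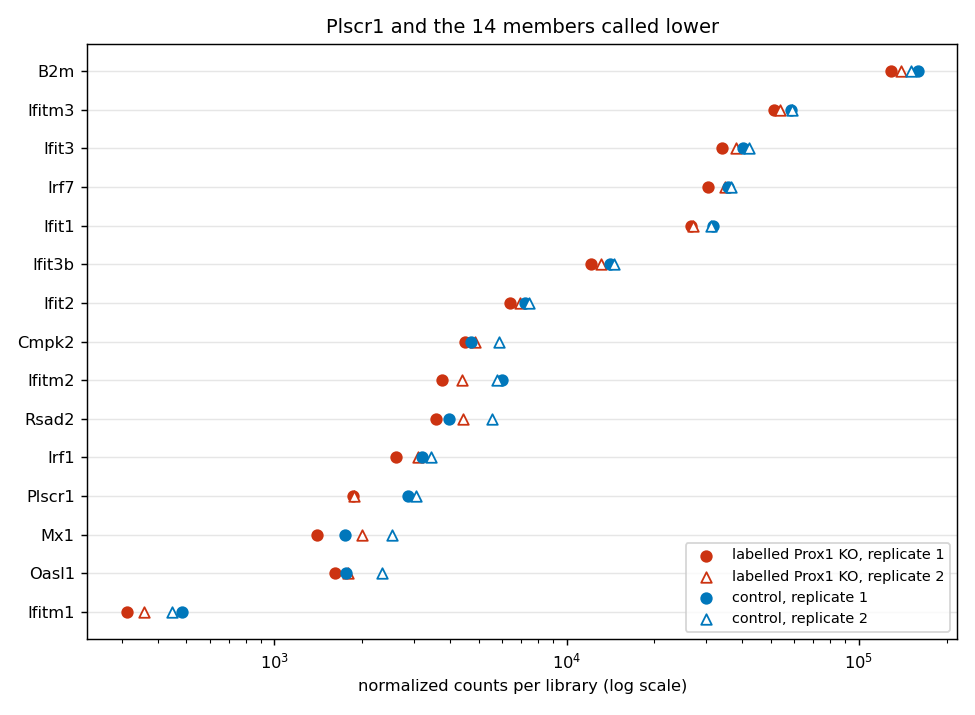
Normalized counts (log axis) of Plscr1 and the 14 members that fell, in each of the 4 libraries; red symbols are KO-labelled libraries, blue symbols controls, circles replicate 1 and triangles replicate 2. Plscr1 and Ifitm2 show the widest gaps between colours, while for Mx1, Oasl1, Rsad2 and Cmpk2 the replicate 2 KO-labelled library lies above the replicate 1 control.

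Sensors had 1 of 10 members lower and a median of -0.02, the closest to 0 of the role groups. Oasl1, a relative of the oligoadenylate synthetases, was the one that fell, with 1614 and 1780 normalized counts in the KO-labelled libraries and 1753 and 2336 in the controls. Its log2 fold change was -0.12 in pair 1 and -0.39 in pair 2 (mean -0.26, standard error 0.06, adjusted p = 0.015), and the replicate 2 control was the highest library. An antisense gene, Gm13822, overlaps its exons. Oasl2, its neighbour on chromosome 5 and the sensor with the highest mean, had 24957 and 28806 against 25971 and 27999, a log2 fold change of -0.0083 (adjusted p = 0.93). The oligoadenylate synthetases Oas1a, Oas2 and Oas3, which make the second messenger that activates RNase L, did not pass. Of the windows of Oas1a, 40.9% are shared with other genes, its paralog Oas1g sharing the most. Oas3 was the member closest to the threshold among those that did not pass, at 0.13 (adjusted p = 0.054). The RNA helicases Ifih1 and Ddx58 were at -0.06 and -0.04, the RNA-activated kinase Eif2ak2 at 0.06 and the RNA-editing enzyme Adar at 0.08.

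None of the 7 genes for Isg15 and for enzymes of its conjugation, ADP-ribosylation and ubiquitin passed limma, and their median was -0.05. At an unadjusted p under 0.05 there was 1 of them, Parp14, and DESeq2 called 0. Isg15 itself had 21778 and 22049 normalized counts in the KO-labelled libraries and 21807 and 21986 in the controls. The 4 libraries lay within a narrow range, with a log2 fold change of 0.0011 ± 0.04 (limma's standard error, adjusted p = 0.99). Usp18, which removes Isg15 from proteins and dampens receptor signalling, was at -0.0045. Herc6, the mouse ligase for Isg15, was at -0.06, but 20.9% of its windows are shared with other genes, an overlapping gene sharing the most.

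Among the transcription factors, Irf1 and Irf7 fell in limma, and Irf9 and Stat2 did not pass. DESeq2 called neither Irf1 (adjusted p = 0.16) nor Irf7 (adjusted p = 0.13). Irf1 had 2602 and 3106 normalized counts in the KO-labelled libraries and 3192 and 3439 in the controls, a log2 fold change of -0.22 ± 0.05 (limma's standard error, adjusted p = 0.0085). Irf7, the amplifier of type I interferon expression, had 30589 and 34835 against 35612 and 36691, or -0.15 (adjusted p = 0.041). For both factors the groups did not overlap, and the replicate 1 KO-labelled library was the lowest by a margin. Exons of both genes overlap antisense genes. Irf9 was at -0.09 (adjusted p = 0.20) and Stat2 at 0.04 (adjusted p = 0.60).

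Of the 4 antigen processing genes, 1 fell. B2m, the light chain of MHC class I, had 129309 and 139637 normalized counts in the KO-labelled libraries and 159498 and 151011 in the controls, without overlap. The log2 fold change was -0.21 ± 0.05 (limma's standard error, adjusted p = 0.019). With quantile normalization B2m was at -0.07 and did not pass (limma, adjusted p = 0.54). The immunoproteasome subunits Psmb9 and Psmb8 were at -0.15 (adjusted p = 0.12) and -0.11 (adjusted p = 0.11), and the peptide transporter Tap1 at -0.03. These 3 genes are neighbours on chromosome 17.

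Among the 14 members that fell, the difference was larger in the replicate 1 pair for 10 and in the replicate 2 pair for 4, namely Mx1, Oasl1, Rsad2 and Cmpk2. The replicate number also went with the level of the members, a comparison that did not enter the choice of the list. Between replicate 2 and replicate 1 libraries, 14 of the 44 members were higher and 0 lower in limma, against 4.39% of all genes higher and 3.49% lower. Before adjustment, 24 members were higher and 0 lower at p under 0.05. The shares above are for adjusted p and give no background for this count. The median log2 difference was 0.10, with 0.14 in the KO-labelled libraries and 0.06 in the controls, against -0.0024 over all genes tested, and 40 of 44 members were above 0. DESeq2 called 5 members, Zbp1, Oas2, Stat2, Rsad2 and Mx1, all higher. Its count over all genes is given in the last section.

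The largest difference between replicate numbers was that of Mx1, at 0.52 (standard error 0.05, adjusted p = 8.5e-06). Zbp1, a sensor of left-handed nucleic acid, had 3159 and 4423 normalized counts in replicates 1 and 2 of the Prox1 KO label and 3384 and 4302 in those of the control. Its log2 difference was 0.42 (standard error 0.05, adjusted p = 3.5e-05), while its log2 fold change between groups was -0.03. Rsad2 differed by 0.40 and Stat2 by 0.32, and the others that passed were Oasl1, Cmpk2, Oas3, Oas2, Irf1, Gbp3, Parp14, Gbp2, Oasl2 and Adar. Of the 14 members that fell between groups, 5 were also higher in replicate 2, and for Plscr1 the difference between replicate numbers was 0.05 (adjusted p = 0.68). By role, 6 of 10 sensors, 5 of 18 effectors besides Plscr1, 2 of 4 transcription factors, 1 of 7 Isg15 and related enzymes and 0 of 4 antigen processing genes were higher in replicate 2. Xist, an RNA of X inactivation, had 14495 and 13944 normalized counts in the replicate 1 libraries and 4.89 and 1.06 in the replicate 2 libraries. The replicate 1 and replicate 2 cultures thus differed in this RNA in both groups, and the part of that difference in the levels of the members was not tested.

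**Figure D4:**
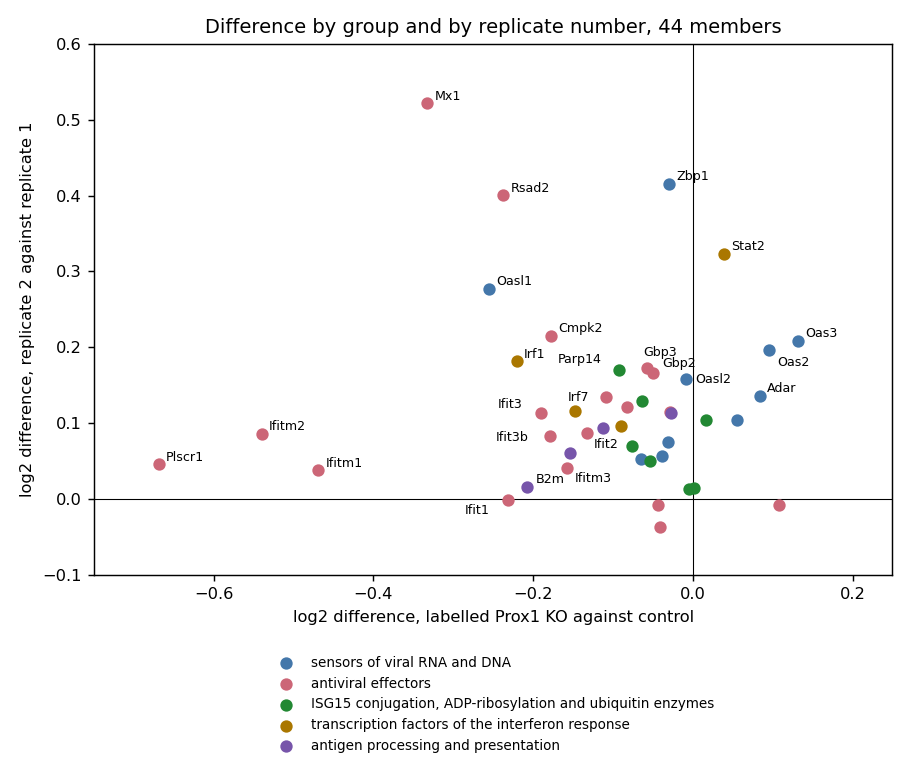
Each of the 44 members by its log2 difference between groups (x axis, labelled Prox1 KO against control) and between replicate numbers (y axis, replicate 2 against replicate 1), coloured by role; names are given for Plscr1 and members past the threshold in either comparison. Plscr1, Ifitm2 and Ifitm1 lie far left and near 0 on the y axis, Zbp1 and Stat2 high and near 0 on the x axis, and Mx1, Rsad2 and Oasl1 away from 0 on both.

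Other genes of the pathway were taken from lists of related genes. In limma, 6.29% of all genes tested were called lower and 5.09% higher, the shares beside which the counts here are given. Of 21 interferon genes, 16 had no read in any library. Interferon beta, Ifnb1, had 23.9 and 27.4 normalized counts in the KO-labelled libraries and 50.5 and 39.4 in the controls, without overlap, but its log2 fold change of -0.78 had a standard error of 0.29 and did not pass (adjusted p = 0.11). Ifng had 1 read, in the replicate 1 control. Receptors, kinases, STATs and feedback genes held 2 falls in 16, the interferon gamma receptor chain Ifngr1 (-0.21, adjusted p = 0.0095) and the feedback inhibitor Socs3 (-0.32, adjusted p = 0.0011), and their median was -0.10. The type I receptor chains Ifnar1 and Ifnar2 were at -0.12 (adjusted p = 0.11) and -0.17 (adjusted p = 0.053). Ifngr2, Jak1, Tyk2, Stat3 and Socs1 did not pass. Of 14 genes that sense nucleic acid or relay the signal, 2 fell, the adaptor Tmem173, also called STING (-0.31, adjusted p = 0.00090), and the receptor Tlr3 (-0.29, adjusted p = 0.0054), with a median of -0.02, and Irf3 was at -0.08 (adjusted p = 0.39).

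Of 62 further interferon-stimulated genes that were tested, 22 fell and 2, Ifi27 and Pml, rose, with a median of -0.10. Over all genes tested the shares were 6.29% lower and 5.09% higher. Ifi27l2a had 1458 and 2222 normalized counts in the KO-labelled libraries and 2761 and 2829 in the controls, a log2 fold change of -0.63 ± 0.09 (limma's standard error, adjusted p = 0.00025). The chemokine Cxcl10 had 2652 and 2984 against 3555 and 5137, or -0.60 (standard error 0.06, adjusted p = 2.0e-05). Their mean differences were near that of Plscr1, whose 2 pairs were alike. The fall of Ifi27l2a was larger in the replicate 1 pair and that of Cxcl10 in the replicate 2 pair. The MHC class I heavy chains H2-K1 and H2-D1, partners of B2m, were at -0.33 (adjusted p = 0.00058) and -0.29 (adjusted p = 0.0011), and H2-T23 at -0.30 (adjusted p = 0.0012). The surface protein Ly6e (-0.28), Slfn9 (-0.41) and Ifi203 (-0.31) fell as well. DESeq2 did not call Ifi27l2a, H2-T23, Ifi27 or Pml, nor Ifngr1, Tlr3 and Plscr2. Between replicate numbers, 26 of the 62 were higher in replicate 2 and 0 lower, against 4.39% and 3.49% of all genes tested. In the scramblase family, Plscr2, the neighbour of Plscr1 on chromosome 9, had 743 and 1028 normalized counts in the KO-labelled libraries and 1160 and 1120 in the controls, or -0.38 (adjusted p = 0.014), Plscr3 was at 0.03 and Plscr4 at -0.39, and neither passed.

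**Figure D5:**
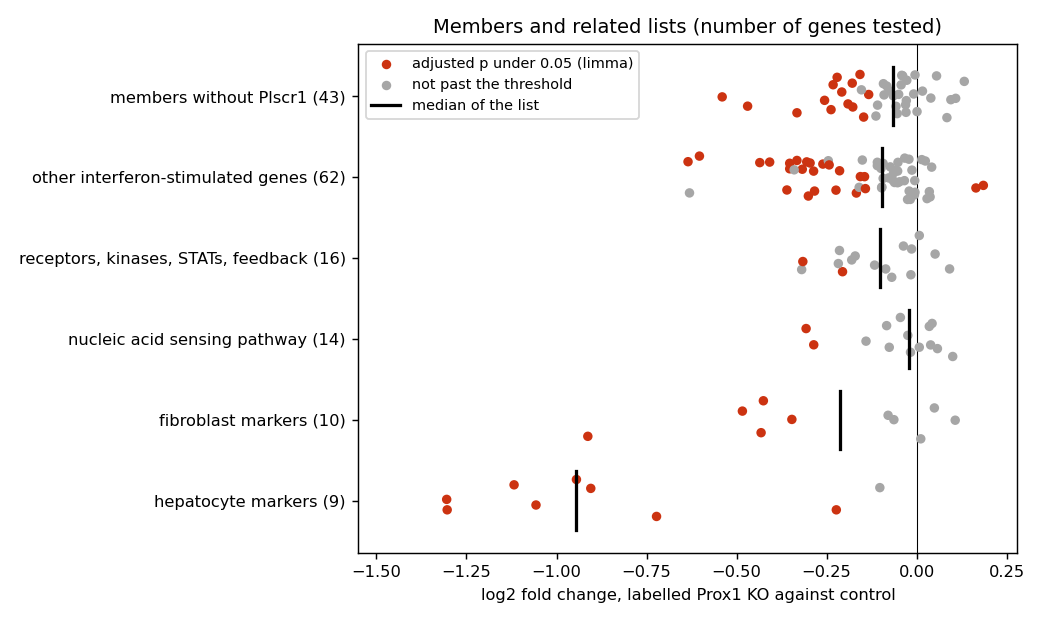
Log2 fold change (x axis, labelled Prox1 KO against control) of the 43 members without Plscr1 and of related lists, 1 point per gene tested with the number in brackets; red points have an adjusted p under 0.05 in limma and black bars are medians. The medians of the 4 interferon lists plotted lie between -0.10 and -0.02, that of the fibroblast markers at -0.21 and that of the hepatocyte markers at -0.94.

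Some markers of cell identity moved with the same labels. The limma threshold was passed by 6.29% of all genes tested as lower and 5.09% as higher. Of the hepatocyte markers 8 of 9 fell, all but Alb (5 in DESeq2), with a median of -0.94, and their summed level was 19841 to 21977 normalized counts in the KO-labelled libraries and 29166 to 32842 in the controls. Of the fibroblast markers 5 of 10 fell, Col3a1, Pdgfra, Dcn, Lum and Postn (in DESeq2 Col3a1 and Lum only), with a median of -0.21 and a summed level of 1016315 to 1197204 against 1121871 to 1287054. The summed level of the 43 members other than Plscr1 was 583846 to 638582 against 655434 to 667341. B2m alone held 129309 and 139637 of this in the KO-labelled libraries and 159498 and 151011 in the controls. The summed level of the 13 immune cell markers, 318 to 366 against 294 to 314, was higher under the Prox1 KO label. Of the 3 immune cell markers tested, 0 passed limma in either direction. Their log2 fold changes ran from -0.29 to 0.41, with 1 below 0. Of the 5 endothelial markers 2 were tested and 1, Kdr, rose, and their summed level was 933 to 1066 against 624 to 752. The part of these differences in the lower level of Plscr1 and of the members that fell was not tested.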

How the data were processed

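Bulk RNA-seq was analysed for 2 libraries labelled Prox1 KO and 2 controls. The authors mapped paired reads to mm10 with STAR and deposited a signal per gene, read counts divided by DESeq2 size factors; the counting tool, its strand setting and the annotation are not given in the sources used here. All positive values were whole multiples of 1 step per library, from which reads were recovered. A further deposited table holds the authors' own comparison and was not used.

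The 15809 of 55397 genes whose mean reached 10 normalized counts entered limma 3.58.1 (R 4.3.3) as log2(value + 1). The fit used an intensity trend in the variance and replicate numbers as blocks, p-values were adjusted by Benjamini-Hochberg over these genes, and the threshold was 0.05. This scale understates changes of low genes. The methods use the MEF line as a covariate. The labels do not tie a replicate number to a MEF line, but libraries of the same number correlated at 0.402 in their deviations from the group means. Xist separated the replicate numbers in both groups, so the libraries of a group were not from 1 culture; which embryos each culture came from is not stated. Same-group libraries differed at an unadjusted p under 0.05 in 34.3% and 35.4% of genes (chi-square test on recovered reads), and none was a duplicate. Counting error does not cover amplification.

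Members and related lists were chosen with earlier results of these data known. The genes named are Plscr1, members past the threshold, the member with the highest mean of each role, the 10 related genes with the smallest p, and a fixed set of pathway genes, of which 1 is not reported here; other members are named where a count or role is described, and other genes after their values were seen. Coordinates and exonic lengths come from GENCODE vM21 on GRCm38, and sequence sharing was counted in 100-base windows. Promoters come from RefSeq on GRCm38.p6. The fits were tested on simulated data. Alternatives were other pseudocounts and filters, quantile normalization, edgeR 4.0.16, DESeq2 1.42.0, no block, each replicate left out and, chosen after seeing the data, a correction for GC content and length (99.9% of tested genes had both).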

Additional observations from a re-analysis of the deposited data

How the results depend on the processing

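With the pseudocounts of 0.1 and 10, the filters, quantile normalization and edgeR, the counts of genes and members called stayed within 1.5 times those given. DESeq2 with the replicate block called 471 genes and 7 members between groups, and 398 genes and 5 members between replicate numbers. Without the replicate block, limma called 0 genes and 0 members between groups, with 1783 genes and 7 members at an unadjusted p under 0.05, against 3751 and 23 with the block. The correction for GC content and length called 1976 genes, 1142 higher and 834 lower, of which 1508 were among the 1798 called without it, and moved the share called higher between replicate numbers from 55.7% to 43.2%. Leaving out a replicate left 1 pair, a value with no test, and the median of the 43 members ranged from -0.11 to -0.03. Log2 fold changes near 0 turned sign. Oasl2 was at 0.030 with the GC and length correction, Isg15 at -0.0016 with edgeR and Ifngr2 at -0.0092 with quantile normalization. With 1 replicate left out, Oasl2 ranged from -0.057 to 0.041, Isg15 from -0.0019 to 0.0041, Ifngr2 from -0.025 to 0.040 and Tyk2 from -0.14 to 0.064. The cause was not tested. With 2 libraries a group, depth limits the genes with few reads, such as Ifnb1 and Prox1.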
